A study of Sus scrofa with 48 samples.

Results

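The genes described here are 6 regulators through which cells sense carbohydrate and sterol: MLXIPL, SREBF1, SREBF2, USF1, TXNIP and SCAP, out of 9835 genes tested. They were read through the probes of a custom porcine microarray whose gene name in the scanner output is one of these symbols in any letter case, which gave 24 of 60305 porcine probes: 11 of TXNIP, 5 of USF1, 3 of SREBF1, 2 of SREBF2, 2 of SCAP and 1 of MLXIPL. RNA of perirenal adipose tissue, the fat depot around the kidney, was measured in 48 Large White pigs aged 132 days by the labels, with 1 array per pig. Pigs came from a low residual feed intake line (RFIneg, the more feed-efficient one) or a high residual feed intake line (RFIpl), and had free access to a diet high in fat and fiber (HF) or to one low in both and rich in starch (LF). Each of the 4 combinations of diet and line held 12 pigs. The values are whole-tissue signals, so fewer cells of a type and less RNA per cell cannot be told apart.

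MLXIPL encodes ChREBP, a transcription factor that becomes active when glucose metabolites accumulate and that switches on glycolytic and lipogenic genes together with its partner MLX. SREBF1 and SREBF2 encode membrane-bound factors that SCAP escorts from the endoplasmic reticulum to the Golgi when sterols are low, where they are cut and released. SREBF1 is best known for fatty acid synthesis genes and SREBF2 for cholesterol synthesis and uptake genes. USF1 is a ubiquitous factor that binds E-box elements of lipogenic promoters. TXNIP is an arrestin-like protein that binds thioredoxin and restrains glucose uptake, and its gene is a classic target of ChREBP.

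Because the members' probes did not all behave alike, the sequences of those that the results turn on are shown as the array files give them, 5′ to 3′. Of the TXNIP probe pairs, 4 shared a run of 17 to 55 bases, so these probes are not separate readings of the transcript. The pair with the shortest shared run is shown, and capitals mark the 17 bases that both hold.
TXNIP A_72_P146541: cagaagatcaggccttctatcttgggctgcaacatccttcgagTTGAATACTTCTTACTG
TXNIP A_72_P391733: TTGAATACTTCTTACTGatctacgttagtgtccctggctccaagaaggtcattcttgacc
The SREBF1 probe with the brightest signal is given whole, and the probe that responded to diet by its first 30 bases, as is the only MLXIPL probe.
SREBF1 A_72_P326973: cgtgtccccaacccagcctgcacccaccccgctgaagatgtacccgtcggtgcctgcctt
SREBF1 O13456, start: ggtcggaatccacaggccgcagaattccaa
MLXIPL A_72_P443011, start: tgtatacccgagcaagccacacgggcagtc
Probes A_72_P672323 and O9582 of USF1 were identical over all 60 bases, so they give the same measurement at separate spots of each array.
USF1 A_72_P672323, start: tggccagtgagcagctaaggcctatgcaga
USF1 O9582, start: tggccagtgagcagctaaggcctatgcaga
Of SREBF1, A_72_P326973 had a G and C content of 66.7% and the third probe, A_72_P223967, one of 81.7%, against 40% for O13456. A_72_P223967 also holds the recognition sequences of the cloning enzymes SalI and NotI, and whether it reads SREBF1 was not tested. The accessions given for SREBF1 O13456, SREBF2 O8965, TXNIP O5767, SCAP O12980 and USF1 O9582 were not in the porcine RefSeq table used here, and neither was that of SREBF2 A_72_P255532. USF1 O9582 has the sequence of A_72_P672323, whose accession was in that table. What the values of the other probes just listed measure in the pig rests on the array's own gene names. MLXIPL A_72_P443011 and TXNIP A_72_P574349 and A_72_P612897 carry pig Ensembl transcript accessions, which were not in that table either. No genome build was given in the sources used here, so no coordinates are given.

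All 24 probes were well above background on at least 47 of the 48 arrays and entered the tests. Levels are log2 intensities minus the median of the array, and a level is compared only between pigs and never between probes. A difference was called when it passed a raw p of 0.01, a fold change of 1.1 and a Benjamini-Hochberg adjusted p of 0.08 over the 43355 probes tested with limma. Of 6 adipocyte markers 1 (CIDEC) was called at its brightest probe, lower in HF pigs. FABP4 and LIPE were not, but 1 of 8 FABP4 probes and 1 of 4 LIPE probes were called lower. The summed level of the adipocyte markers was 4843 to 6578 (median 5513) times the array median in HF pigs and 5172 to 6734 (median 6050) in LF pigs. Macrophage markers moved with the diet: 5 of 6 measured were called higher in HF pigs, and none was lower. Their summed level was 43.0 to 312.3 (median 136.2) times the array median in HF pigs and 38.5 to 256.8 (median 81.4) in LF pigs. Of 5 kidney markers only AQP2, a water channel of the collecting duct, was tested, and it was called lower in HF pigs (-0.63, SE 0.13, 23 of 24 HF pigs under the LF mean). SLC12A1 and LRP2 were not well above background on enough arrays. The part of any of these cells in the diet differences below was not tested.

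The signals of the glucose-sensing factor MLXIPL and of 1 SREBF1 probe were lower in HF pigs, and no other member passed the thresholds. In all, 2 of 24 member probes were called for diet, both lower in HF pigs. Over all probes tested, 23.1% were called for diet, 14.5% being lower and 8.58% higher in HF pigs. Since 11 of the 24 member probes read TXNIP and follow each other closely, the share of member probes called is not directly comparable. With the brightest probe of each gene, MLXIPL was the only member called, where 25% of all 9835 genes were. The number of member probes called also changed with the scaling, as given below.

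The MLXIPL level ranged from 2.73 to 4.06 (median 3.53) in HF low RFI pigs and from 2.62 to 4.35 (median 3.61) in HF high RFI pigs. It ranged from 3.6 to 4.92 (median 4.12) in LF low RFI pigs and from 2.84 to 4.91 (median 4.25) in LF high RFI pigs. HF pigs were lower in both lines but the diets overlapped: 22 of 24 HF pigs lay under the LF mean, and 7 LF pigs exceeded every HF pig. MLXIPL was 1.54-fold lower in HF pigs (log2 difference -0.62, SE 0.13, limma adjusted p = 0.00027). The difference was -0.63 (SE 0.18) within the low RFI line and -0.61 (SE 0.18) within the high RFI line. It was negative on all 6 slides, from -0.94 to -0.24, and amounted to -0.62 and -0.63 on the first and second scan day.

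**Figure D1:**
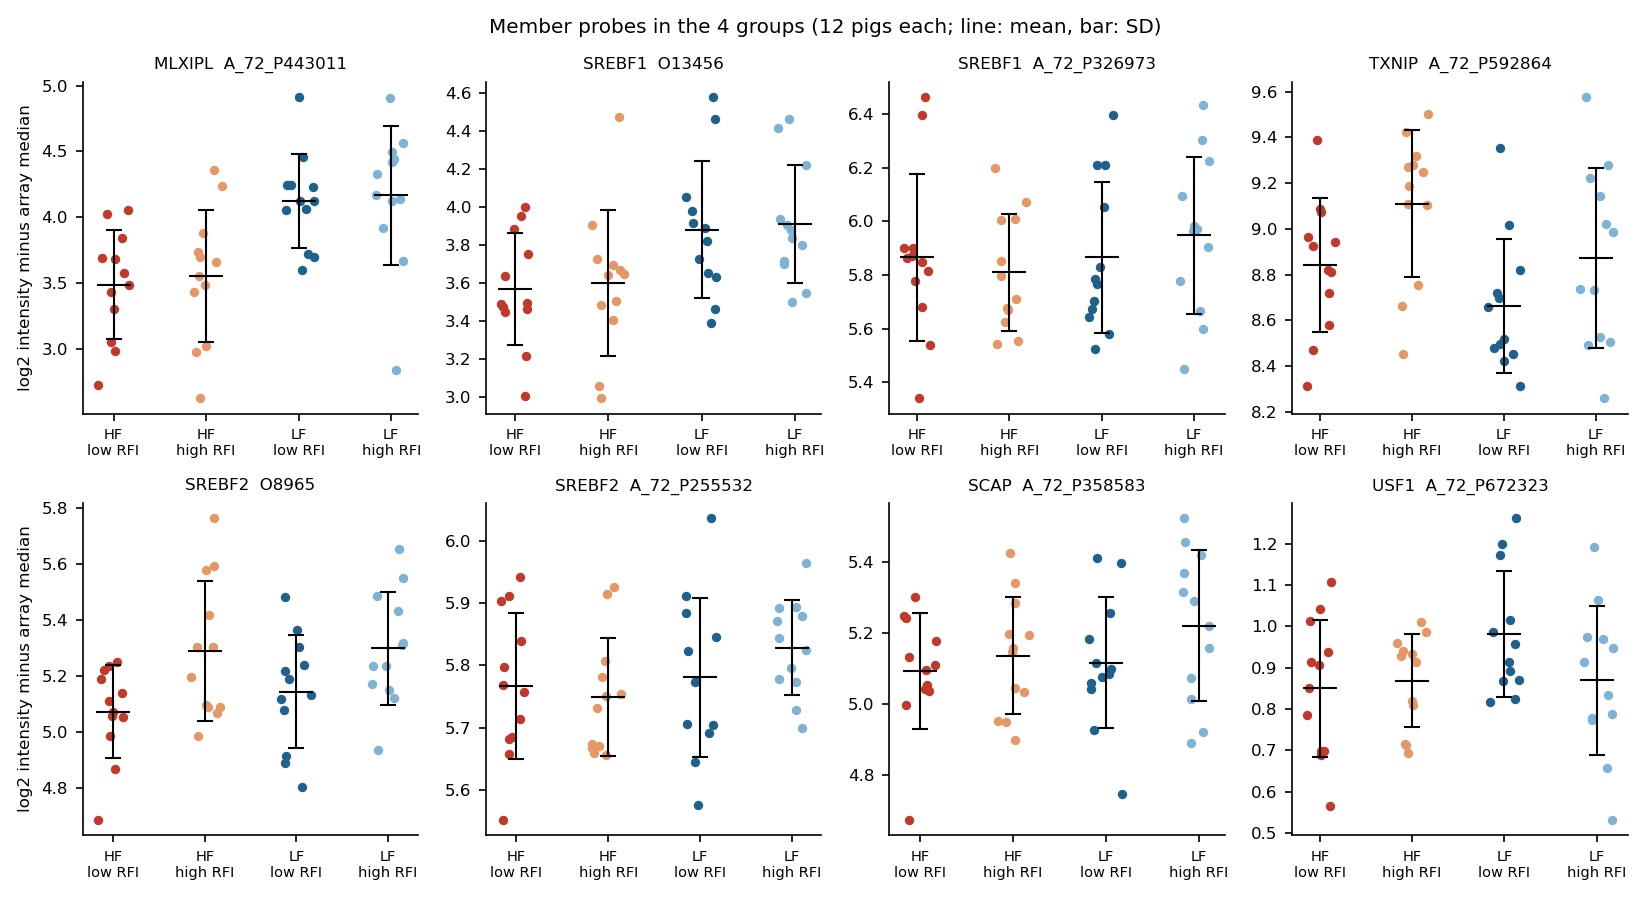
Level (log2 intensity minus the array median, y axis) of 8 member probes in the 4 diet and line groups (x axis), with 1 point per pig (12 per group), the group mean as a line and the SD as a bar. MLXIPL and SREBF1 O13456 sit lower in both HF groups, with overlap, whereas SREBF1 A_72_P326973 overlaps widely between all groups.

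SREBF1, the lipogenic SREBP gene, gave different answers by probe. The O13456 level ranged from 3.0 to 4.0 (median 3.49) in HF low RFI pigs and from 2.99 to 4.47 (median 3.65) in HF high RFI pigs. In LF pigs it ranged from 3.39 to 4.58 (median 3.85) in the low RFI line and from 3.5 to 4.46 (median 3.86) in the high RFI line. The groups overlapped, with 20 of 24 HF pigs under the LF mean and 4 HF pigs under every LF pig. O13456 was 1.24-fold lower in HF pigs (log2 difference -0.31, SE 0.095, limma adjusted p = 0.0117), by -0.31 in each line, and its difference was negative on all 6 slides. Its call was lost under 2 other scalings, which left the difference at -0.26 and -0.20.

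The other SREBF1 probes were not called for diet. A_72_P326973 had group medians of 5.85 (HF low RFI), 5.75 (HF high RFI), 5.78 (LF low RFI) and 5.97 (LF high RFI), with pigs between 5.34 and 6.47, and all groups overlapped. Their log2 differences were -0.069 (95% interval -0.23 to 0.090) for A_72_P326973 and -0.092 (95% interval -0.22 to 0.035) for A_72_P223967, and the sign of each turned under at least 1 other scaling. Whether O13456 differed from them was tested after these values were seen: its diet difference was lower by 0.243 (SE 0.119, permutation p = 0.051) than that of A_72_P326973 and by 0.220 (SE 0.104, permutation p = 0.042) than that of A_72_P223967, with an adjusted p of 0.051 for both. Within groups, A_72_P326973 and A_72_P223967 followed each other closely over the 48 pigs (r = 0.903), whereas O13456 followed neither (r = 0.084 and 0.196). Both also followed the mean of the tested probes with a G and C content of 65% or more, at r = 0.766 and 0.734, against 0.293 for O13456. Of the 224 tested probes in that class, to which both belong, 44.2% followed the mean at r over 0.5 (median r 0.469), against 8.30% of all tested probes.

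TXNIP, the glucose-responsive arrestin gene, was the member with the most probes, and these gave nearly the same ranking of pigs (median r over 55 probe pairs 0.949). The level of its brightest probe, A_72_P592864, ranged from 8.31 to 9.39 (median 8.87) in HF low RFI pigs and from 8.45 to 9.50 (median 9.22) in HF high RFI pigs. In LF pigs it ranged from 8.31 to 9.36 (median 8.59) in the low RFI line and from 8.26 to 9.58 (median 8.86) in the high RFI line. The groups overlapped over nearly their whole range, the HF high RFI pigs being highest on average and the LF low RFI pigs lowest. All 11 probes were higher in HF pigs, by 0.17 to 0.27 on the log2 scale. The sign was the same in all 11 under the 4 other scalings, with sizes from 0.148 (normexp) to 0.376 (spike-in centring). None was called (raw p 0.016 to 0.13, limma adjusted p 0.054 to 0.25). An unadjusted limma p under 0.05 for diet was found for 10 of the 11, and for 40.05% of all probes tested. The call depended on the scaling: 8 of 11 probes were called after quantile normalization, 10 after centring on the spike-in controls and 2 after scaling on the 75th percentile. The probes share a transcript and arrays, so their common direction is 1 observation and not 11. The sign was positive on 5 of 6 slides.

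The TXNIP signal also stood lower in the low RFI line, by 0.19 to 0.29 on the log2 scale in the 11 probes (raw p 0.0074 to 0.088, limma adjusted p 0.14 to 0.51). None was called for line, where 3.38% of all probes were, 1.67% being lower and 1.71% higher in low RFI pigs. For A_72_P592864, 19 of 24 low RFI pigs lay under the high RFI mean.

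**Figure D2:**
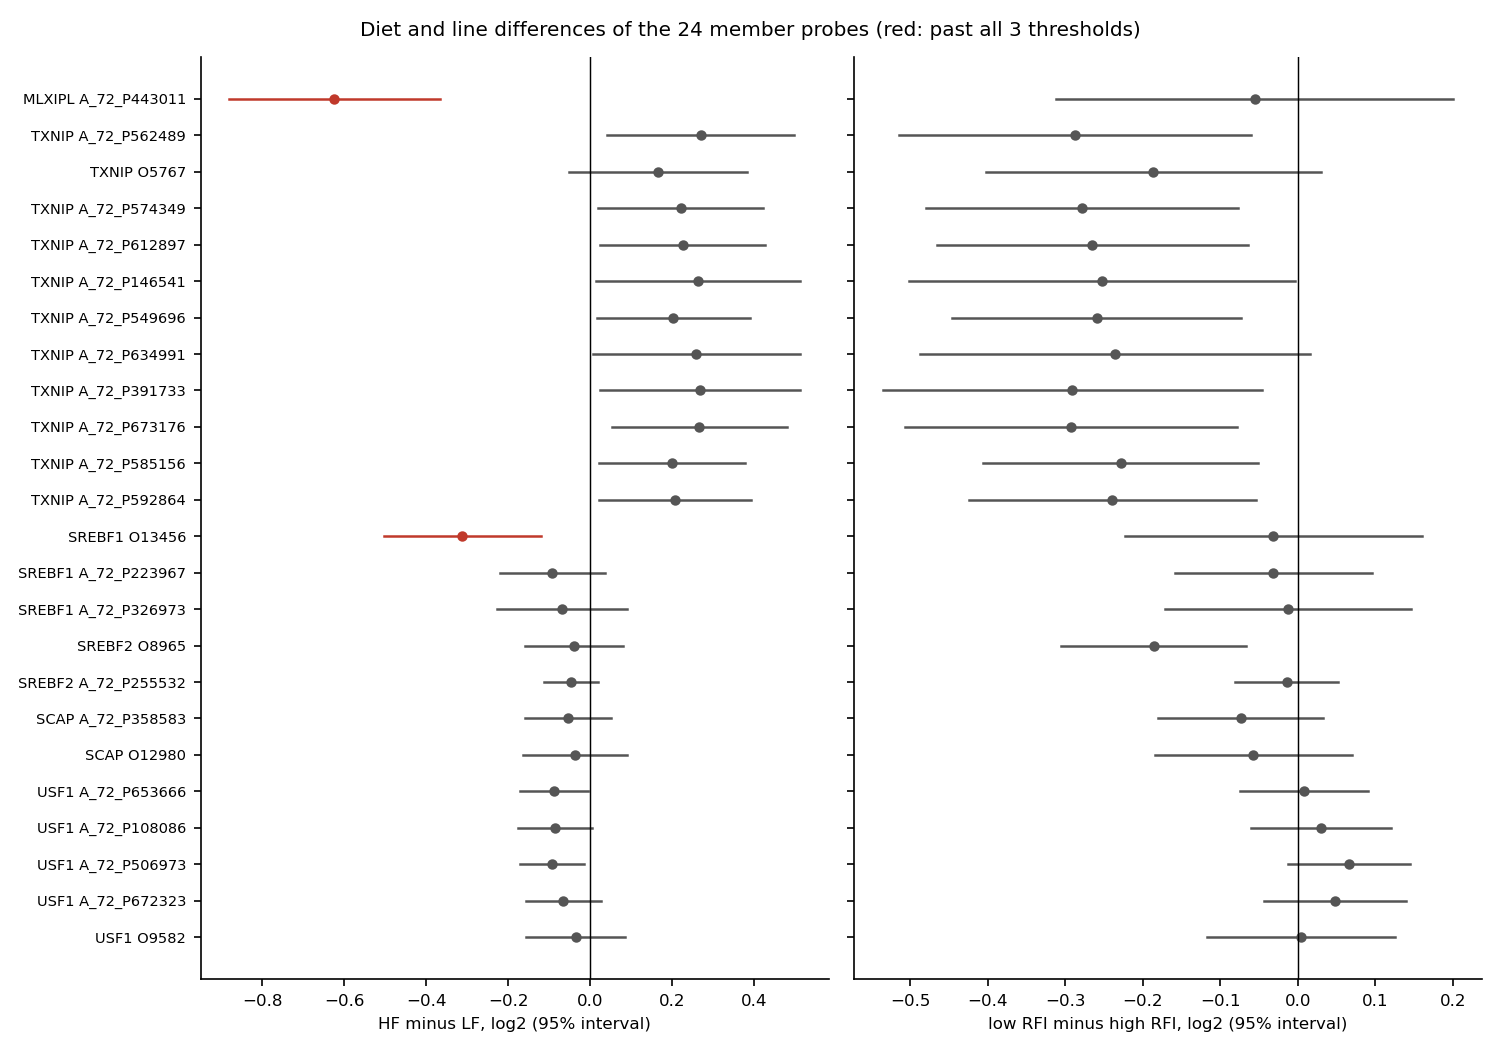
Diet difference (HF minus LF, left) and line difference (low minus high RFI, right) of the 24 member probes on the log2 scale (x axes), with points for the estimates, lines for 95% intervals and red for probes past all 3 thresholds. Only MLXIPL and SREBF1 O13456 are red, for diet, and the 11 TXNIP probes lie to the right of 0 for diet and to the left for line.

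SREBF2, the cholesterol-side SREBP gene, showed no called difference. The diet differences of its probes were -0.046 (95% interval -0.11 to 0.020) and -0.040 (95% interval -0.16 to 0.079), and both turned positive after quantile normalization and after spike-in centring. For line, O8965 ranged from 4.69 to 5.48 (median 5.12) in low RFI pigs and from 4.93 to 5.76 (median 5.27) in high RFI pigs. The lines overlapped, with 21 of 24 low RFI pigs under the high RFI mean. The difference was -0.19 (SE 0.059, raw p = 0.0029, limma adjusted p = 0.082), just short of the threshold, which this probe passed under 11 alternatives. It did not pass under the other alternatives, among them spike-in centring and a two-way ANOVA per probe. The other SREBF2 probe, A_72_P255532, differed by -0.015 between lines (95% interval -0.081 to 0.052), and the probes were uncorrelated within groups (r = 0.012).

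SCAP, the sterol-sensing escort of the SREBPs, differed by -0.054 (95% interval -0.16 to 0.052) and -0.037 (95% interval -0.16 to 0.090) between diets at its 2 probes, which agreed well within groups (r = 0.774). The level of A_72_P358583 had group medians from 5.09 to 5.25 and the groups overlapped. The SCAP differences turned positive after spike-in centring.

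USF1, the E-box factor, was dim, with mean levels from -1.03 to 0.93 around the array median. Its 5 probes differed by -0.092 to -0.036 between diets (raw p 0.022 to 0.56, limma adjusted p 0.068 to 0.69) and turned positive after spike-in centring. None was called. The identical probes followed each other within groups only at r = 0.617. Their raw interaction p values were 0.16 for A_72_P672323 and 0.034 for O9582.

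No member was called for a diet response that differed between lines. Limma called 0 of the 43355 probes for the interaction, where 1000 had a raw p under 0.05, and among the members only USF1 O9582 did.

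All 7 lipogenic enzyme genes measured were called lower. Their median on the log2 scale was -0.80, and that of all 9835 genes was -0.046. Of all genes, 25% were called, 18.9% lower and 6.06% higher. ME1, which supplies NADPH, differed by -1.25 (SE 0.19), ACACA, which makes malonyl-CoA, by -0.90 (SE 0.15), ACLY, which makes acetyl-CoA from citrate, by -0.93 (SE 0.16) and ELOVL6, an elongase, by -0.80 (SE 0.15). All 6 cholesterol synthesis and uptake genes measured were called lower as well, with a median of -0.44. LSS, the lanosterol synthase, differed by -0.41 (SE 0.091) and IDI1, an isomerase of isoprenoid units, by -0.38 (SE 0.091).

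Of the genes that process or partner the factors, 2 of 16 were called, both lower. TXNRD1, which keeps thioredoxin reduced, differed by -0.49 (SE 0.066) and INSIG1, which retains SCAP in the endoplasmic reticulum, by -0.17 (SE 0.056). At their brightest probes, SP1 (0.13, SE 0.041) and USF2 (-0.14, SE 0.045) stayed under the fold threshold. The other of the 2 USF2 probes was called lower, at -0.17. MLX, the partner of ChREBP, was called for line at 1 of its 2 probes (-0.55, against 0.0099 at the other) and for diet at neither. Among the glucose-responsive genes, 4 of 8 were called lower and 1 higher. PNPLA3, a lipid droplet hydrolase, differed by -1.23 (SE 0.20), the hexokinase HK2 by -0.79 (SE 0.13) and the insulin-responsive glucose transporter SLC2A4 by -0.77 (SE 0.18), and GPD1 by -0.22 (SE 0.066). KLF10, a transcription factor, went the other way at 0.58 (SE 0.14).

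**Figure D3:**
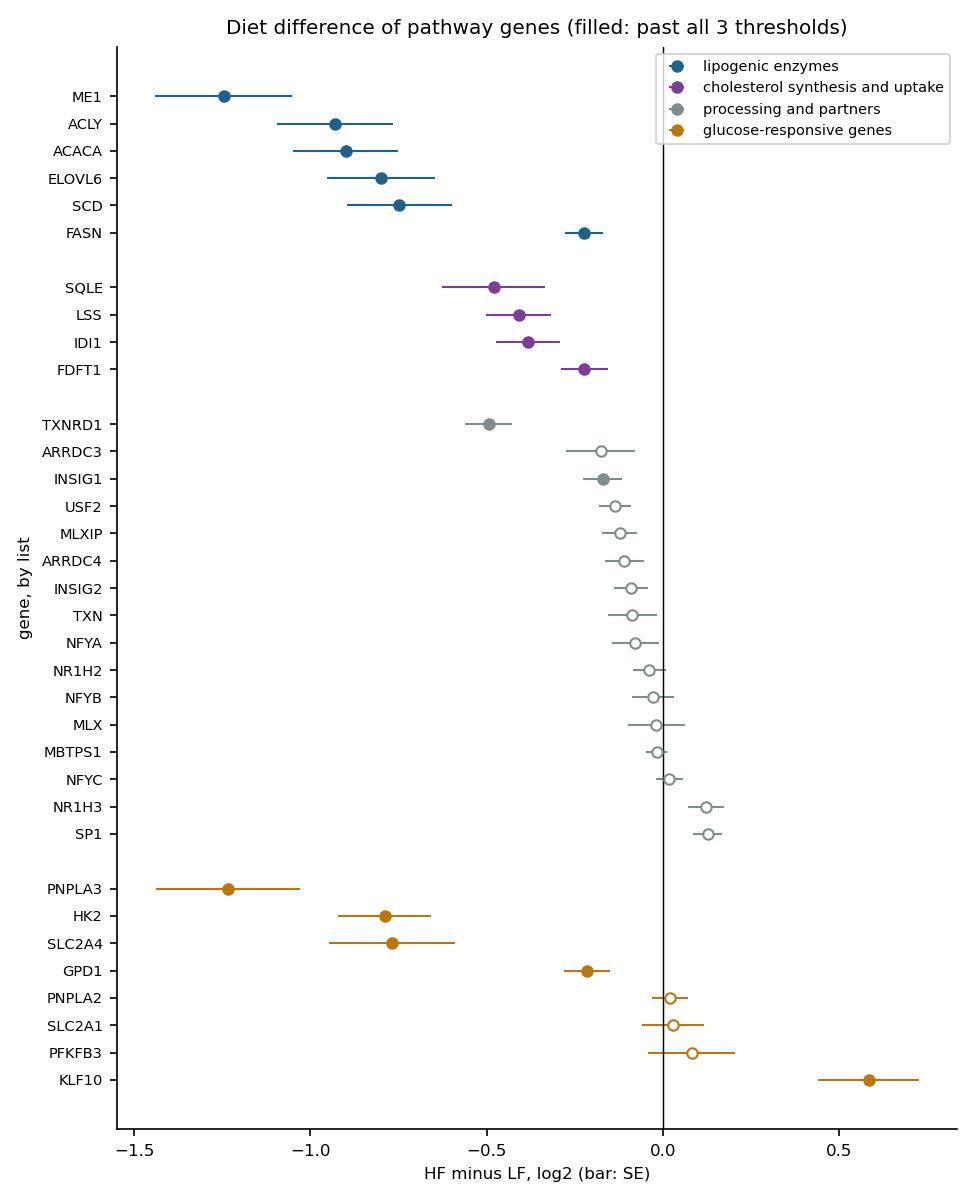
Diet difference (HF minus LF, log2, x axis) of the genes of 4 lists (y axis), with SE bars and filled points for genes past all 3 thresholds. All lipogenic and cholesterol genes drawn are filled and left of 0, and of the 16 processing and partner genes TXNRD1 and INSIG1 are filled.

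To see whether pigs with more of a regulator also had more of these transcripts, the deviations of each pig from its group mean were correlated over the 48 pigs for 93 pairs, using the brightest probe of each gene. Of the 93 pairs, 14 had an adjusted permutation p under 0.05, 11 positive and 3 negative. Values of a pair share an array and its centring.

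MLXIPL had a median r of 0.398 with cholesterol genes and 0.167 with lipogenic ones, a contrast that was not tested. Its correlation with SQLE, an early sterol enzyme, was r = 0.643 (rho = 0.638, both with permutation p = 1e-05, the smallest that the permutations can give, adjusted p = 0.000465). Within HF and LF pigs r was 0.656 and 0.631, on the scan days 0.485 and 0.834, and without the 2 pigs with the most extreme MLXIPL 0.643. ACLY (r = 0.460, rho = 0.487, permutation p = 0.00209 and 0.00101, adjusted p = 0.0177 and 0.00854) passed the threshold too, but on the first scan day its r was 0.135 against 0.655 on the second. With FASN, the fatty acid synthase, r was -0.016. ACACA (rho = 0.422, adjusted permutation p = 0.0283) and ELOVL6 (rho = 0.435, adjusted permutation p = 0.0193) passed by rho but not by r (0.280 and 0.346). Of all tested genes, 0.143% had a larger r with MLXIPL in size than SQLE.

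TXNIP had a negative r with all 7 lipogenic enzymes, from -0.50 to -0.24, and 2 of them passed the threshold. The weakest were ACLY (r = -0.247, adjusted p = 0.263) and ELOVL6 (r = -0.235, adjusted p = 0.266), for which r in LF pigs was -0.020 and 0.068. With ME1 r was -0.490 (permutation p = 0.00043; rho = -0.488, p = 0.00066; adjusted p = 0.00651 and 0.00642). Without the 2 most extreme pigs it was -0.473, and within HF and LF pigs -0.547 and -0.444. The lipogenic gene SCD passed by rho (rho = -0.474, adjusted permutation p = 0.00642) but not by r (r = -0.347, adjusted permutation p = 0.0724). Of the cholesterol genes, LSS passed (r = -0.484, rho = -0.493), but not with slide removed (r = -0.412) or after spike-in centring (r = -0.372). The TXNIP probe used here had r = -0.306 with the mean of the probes rich in G and C, and all TXNIP probes had -0.53 to -0.29. The median over all tested probes was 0.043. The part of this in the correlations was not tested.

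**Figure D4:**
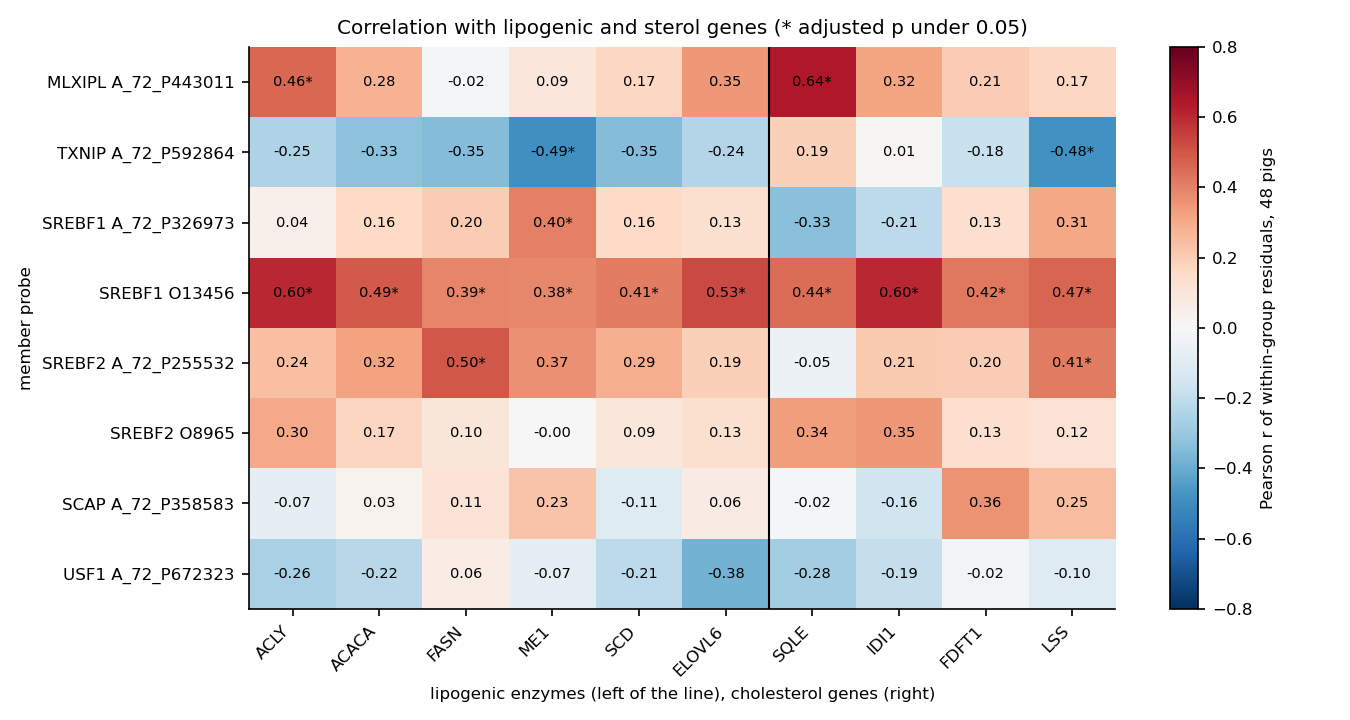
Pearson r of within-group deviations over 48 pigs between member probes (rows) and lipogenic or cholesterol genes (columns), with blue for negative, red for positive and an asterisk for an adjusted p under 0.05. The row of SREBF1 O13456 is positive throughout, from 0.38 to 0.60, whereas that of SREBF1 A_72_P326973 is mixed.

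The SREBF1 probes split again. A_72_P326973 passed the threshold with 2 of 7 lipogenic genes, of which ME1 (r = 0.403, rho = 0.344) did not pass it by rho, with slide removed, without the 2 most extreme pigs or under 3 of the 4 other scalings (lowest r 0.307), and with none of the cholesterol genes (-0.33 to 0.31). O13456, examined after its diet response was known in a family of 39 pairs with the other SREBF1 and SREBF2 probes, was positive with all 13 genes and passed the threshold with each. Its r ran from 0.38 to 0.60 for lipogenic enzymes (adjusted p at most 0.0238) and from 0.42 to 0.60 for cholesterol genes (adjusted p at most 0.0129). The highest were ACLY (r = 0.603, rho = 0.515) and IDI1 (r = 0.601, rho = 0.606), which stood at 0.507 and 0.529 without the 2 most extreme pigs. Lower ones included FASN and SQLE, which fell from 0.393 and 0.445 to 0.327 and 0.333 without those pigs. Of all tested genes, 0.336% had a larger r in size with O13456 than ACLY and 0.347% than IDI1, against 7.10% for FASN and 7.76% for ME1. The checks with slide removed and under the other scalings were not run for O13456.

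SREBF2 also split by probe. A_72_P255532 passed the threshold with 3 of the 13 genes, FASN (r = 0.495, rho = 0.599) and LSS (r = 0.415, rho = 0.402) among them, while O8965 did so with 2 of 6 cholesterol genes. The r of FASN fell to 0.232 under normexp and 0.247 under quantile normalization and that of LSS to 0.185 and 0.208, none of which passed, and LSS did not pass with slide removed either (r = 0.378, adjusted p = 0.0778). A_72_P255532 also followed the mean of the probes rich in G and C, at r = 0.609. SCAP and USF1 passed the threshold by r with none of the 13 genes, and USF1 was negative with 12 of them. With slide removed, USF1 passed with ELOVL6 (r = -0.471, adjusted permutation p = 0.0183). By rho, SCAP passed with the cholesterol gene FDFT1 (rho = 0.392, adjusted permutation p = 0.0371). Between members, SREBF1 A_72_P326973 correlated with SCAP (r = 0.541) and with SREBF2 A_72_P255532 (r = 0.422), in LF pigs at 0.794 and 0.637 and in HF pigs at 0.215 and 0.194. The difference between diets was not tested, and the pair of SREBF1 and SREBF2 did not pass under normexp (r = 0.321), quantile normalization (r = 0.335) or with slide removed (r = 0.379).

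**Figure D5:**
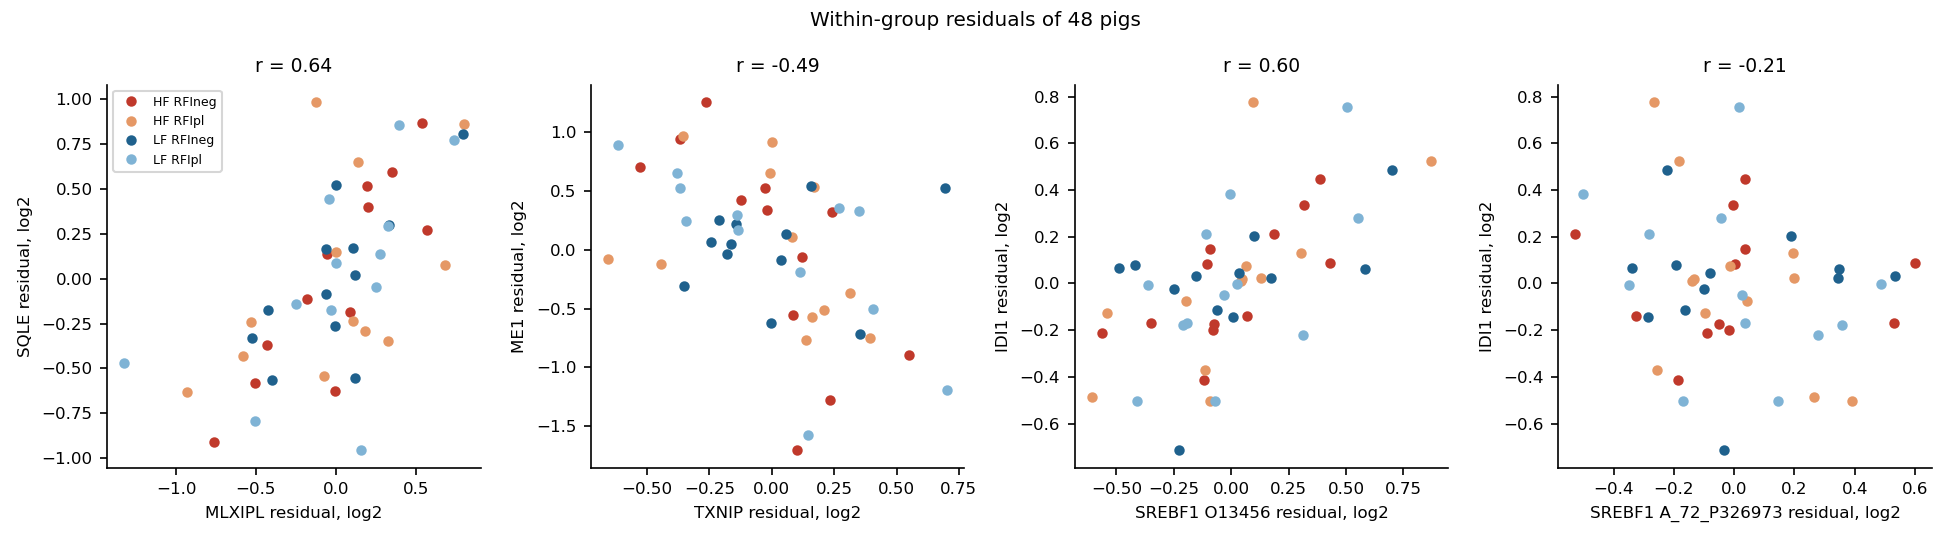
Within-group deviations (log2, both axes) of 48 pigs, coloured by diet and line, for MLXIPL with SQLE, TXNIP with ME1, and both SREBF1 probes O13456 and A_72_P326973 with IDI1. The same IDI1 values rise with O13456 (r = 0.60) and not with A_72_P326973 (r = -0.21).

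Of the 9809 genes compared, those most like MLXIPL over the 48 pigs were NDUFAF4 (r = 0.726), an assembly factor of respiratory complex I, MUL1 (r = 0.720), a mitochondrial ubiquitin ligase, and EEF1E1 (r = 0.715), a component of the tRNA synthetase complex. All of these were called lower in HF pigs, by 0.36 to 0.48 on the log2 scale. Those most like TXNIP were NFKBIA (r = 0.649), the inhibitor of NF-kappa-B, ARRDC2 (r = 0.642), an arrestin family member, and DDIT4 (r = 0.632), a stress-induced inhibitor of mTORC1, none of them called for diet. SREBF1 A_72_P326973 was matched by NRTN, CYP2S1 and FAM124A at r of 0.952, 0.937 and 0.934. Its r with the other SREBF1 probes was 0.903 for A_72_P223967 and 0.084 for O13456. For SREBF2 A_72_P255532 they were TNFSF12, PTMS and AP2A1 (r = 0.812, 0.797 and 0.777), for SCAP WFDC3, VRK1 and CUL9 (r = 0.689, 0.687 and 0.684), and for USF1 MATK, EEF2K and NXT1 (r = 0.660, 0.592 and 0.571).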

How the data were processed

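RNA of 48 samples was labelled with Cy3 and hybridised to 1-colour arrays on 6 slides, each with 2 arrays of every group. The authors deposited scanner intensity values per spot (Feature Extraction 10.7.3.1) and a table of log2 values centred on the array median; its values belonged to other probes than its row names say, so log2 gMedianSignal minus the array median was computed from the scanner intensity files. The array median intensity was 115 to 178 and the number of arrays limits the precision. Of 60305 probes, 43355 well above background on at least 24 arrays were tested, without 198 flagged spots. Diet, line and interaction were fitted with limma 3.58.1 (R 4.3.3). Correlations used 100000 permutations within groups, two-sided (Python 3.11.15). Per gene, the probe with the highest mean was used. The members and lists were chosen with earlier results of these data known. Named genes were all members, at most the 4 list genes with the lowest diet p plus called genes against their list's direction, and the 3 genes most correlated with each member. Scripts were tested on simulated data. Scalings, filters, blocks and thresholds were varied, and centring on the deposited probes, single scan days and the other SREBF1 and SREBF2 probes were added after seeing the data. Listed genes without a probe were THRSP, MBTPS2 and PKLR, and HMGCS1 and DHCR7 were not tested. Other marker lists gave these diet calls: T and NK cells 1 of 6 (higher in HF pigs), endothelium and fibroblasts 0 of 5 each, adrenal 0 of 4, muscle 1 of 5 (lower) and erythrocytes 0 of 3. AQP2 was named after its value was seen. Some single genes of the lists are counted but not reported here.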

Additional observations from a re-analysis of the deposited data

How the results depend on the processing

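The number of member probes called for diet was 2, and it became 4 with 75th percentile scaling, 9 with normexp and quantile normalization, 10 with quantile normalization, 11 with spike-in centring, 8 with array weights and 1 with a fold over 1.5. It kept MLXIPL in each of these. Spike-in centring moved the median diet difference of all probes by 0.11 and the share of higher among all diet calls from 37.2% to 85.4%, and the 3 other scalings to between 51.8% and 52.0%. The TXNIP probe A_72_P592864 became called at 0.27 in normexp and quantile normalization, 0.27 in quantile normalization, 0.31 in spike-in centring and 0.25 with array weights. SREBF1 O13456 lost its call at -0.26 with normexp, at -0.20 with spike-in centring and, unchanged at -0.31, with a fold over 1.5. The cause was not tested. For line, 0 member probes were called with limma, and 1 with 75th percentile scaling, normexp, quantile normalization, the probes above background on all arrays, the deposited probes, the slide, scan day or replicate block, no interaction term, array weights and deposited-probe centring. An unadjusted limma p under 0.05 for line was found for 10 member probes and for 12.6% of all probes tested. Of those 10, 9 read TXNIP, whose probes follow each other closely, and 1 reads SREBF2.

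With a fold over 1.5, diet calls over all probes fell from 10005 to 439, line calls from 1465 to 233, those of the listed genes from 20 to 9, of cholesterol genes from 6 to 1, of processing and partner genes from 2 to 0 and of glucose-responsive genes from 5 to 3. Processing and partner genes gave 4 with 75th percentile scaling. Pairs past the threshold numbered 14, and 9 with slide removed, 2 in HF pigs alone, 24 when the probes of a gene were averaged, and 5 and 4 on scan days 1 and 2, where fewer pigs were compared.

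Differences that changed sign were small. Under spike-in centring these were the diet differences of SREBF1 A_72_P223967 (0.015) and A_72_P326973 (0.038), SREBF2 O8965 (0.067) and A_72_P255532 (0.061), SCAP A_72_P358583 (0.053) and O12980 (0.070), and USF1 A_72_P653666 (0.019), A_72_P108086 (0.021), A_72_P506973 (0.015), A_72_P672323 (0.042) and O9582 (0.071), and the line differences of USF1 A_72_P653666 (-0.017) and O9582 (-0.021). Under normexp the diet differences of SREBF1 A_72_P326973 (0.0070), SREBF2 O8965 (0.031) and A_72_P255532 (0.030) and SCAP A_72_P358583 (0.018) turned, and under quantile normalization these stood at 0.014, 0.031, 0.031 and 0.015. With array weights the line differences of USF1 A_72_P653666 (-0.013) and O9582 (-0.030) turned. The interaction could not be given without its term.

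Replicate numbers were not taken to pair the samples, since 38 of 72 same-numbered pairs correlated over 0.1 and not all. Their median correlation was 0.126, against -0.011 for other numbers, and 17 of 48 arrays correlated best with their own number, which is a hint from the data. All 72 pairs lay on 1 slide each, and arrays of 1 slide had a median of 0.084. With the replicate block, 2 member probes were called for diet and 1 for line, and all-probe diet calls numbered 10897. Dim probes such as those of USF1 limit what could be seen.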
